A study of Homo sapiens with 33 samples.

Results

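Proteoglycans are proteins that carry long sulfated sugar chains and fill the extracellular matrix or sit on the cell surface. The genes described here are 10 of the 56470 gene symbols in the deposited count table. LUM, DCN, BGN, FMOD and PRELP encode small leucine-rich proteoglycans, VCAN a large proteoglycan bound to hyaluronan, HSPG2 and AGRN basement membrane heparan sulfate proteoglycans, and SDC1 and SDC2 membrane-spanning syndecans. They were taken by symbol, and LUM was selected on its measured rise with cetuximab in SCC25. Its levels in SCC25 are therefore given as a description, with no test.

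Bulk RNA sequencing was done daily in 3 established lines of head and neck squamous cell carcinoma, SCC1, SCC6 and SCC25, given either 100 nM cetuximab (CTX), an antibody that blocks EGFR, or PBS as the untreated control. The table holds 33 libraries. PBS was sampled on days 0 to 5 and cetuximab on days 1 to 5, with 1 library for each line, treatment and day, except that 2 cetuximab libraries of SCC6 are labelled day 2 (here 2a and 2b) and none day 1. Comparisons used 5 libraries per line and treatment, from days 1 to 5, so the p-values measure the spread between days of a single course and not between repeated experiments.

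Lumican, decorin, biglycan, fibromodulin and PRELP are secreted, bind fibrillar collagens and shape how collagen fibrils assemble. In carcinomas, lumican and decorin are known mainly as products of stromal fibroblasts, while syndecan-1 is abundant on squamous epithelial cells. Perlecan, the product of HSPG2, and agrin carry heparan sulfate, which holds growth factors close to the cell. Versican carries chondroitin sulfate and loosens the matrix around cells.

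Total counts per library ranged from 28508758 to 80727478, with a median of 43002133. Of the markers fixed for other cell types, all 10 of the keratinocyte list averaged at least 1 CPM (counts scaled to a common library total with TMM factors) in every group. Of the leukocyte markers reported, PTPRC, CD3E and LYZ averaged under 1 CPM in every group, PTPRC, the pan-leukocyte marker, from 0.0393 to 0.216. CD14 averaged up to 4.11 CPM, in SCC1. CD68, a lysosomal protein abundant in macrophages, averaged 35.0 CPM in SCC1, 17.1 in SCC6 and 201 in SCC25 with PBS, and was called lower with cetuximab in all 3 (log2 -2.15, -1.89 and -0.32). The part of these markers in the members' changes was not tested. The flow cells named in the labels did not carry the groups evenly. All SCC25 PBS libraries and cetuximab days 1 and 2 ran on one flow cell and SCC25 cetuximab days 3 to 5 on another. SCC1 cetuximab shared a flow cell with only 1 of its PBS libraries, day 5, so each SCC1 value with flow cell in the model rests on that library. SCC6 PBS days 0 and 1, PBS days 2 to 5 with cetuximab 2a, 2b and 3, and cetuximab days 4 and 5 ran on 3 separate flow cells.

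The trend of expression with GC content also differed between libraries. Relative to the other libraries of its line, SCC25 cetuximab day 3 lost 0.31 (log2) for every 10 percentage points of GC (slope -0.31). In SCC6 the slope was 0.26 for PBS days 0 and 1, 0.34 and 0.19 for cetuximab days 4 and 5, and between -0.26 and -0.05 for the other libraries. AGRN (67.9% GC), HSPG2 (64.5%), BGN (60.9%) and SDC1 (60.1%) lie at the GC-rich end of the genes tested in SCC25, between percentiles 86.6 and 99.2, and LUM (34.9%) at the GC-poor end, at percentile 1.61. Values with the GC trend removed, or with flow cell in the model, stand beside the members' results whose call they change. The marker and list genes are given from the main fit alone, so how far flow cell or GC trend changes them is not shown here.

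Among the untreated lines, SCC25 held the most small leucine-rich proteoglycan RNA. Per kilobase of the longest annotated transcript, the order of the PBS levels began with SDC1, AGRN and HSPG2 in every line. SDC1 stood at 99.0 ± 18.0 (SD, n = 5) CPM per kb in SCC1, 56.4 ± 36.0 in SCC6 and 146 ± 10.98 in SCC25. LUM came next in SCC25, at 11.01 ± 3.49 CPM per kb, above BGN at 4.47 ± 1.44. DCN at 0.815 ± 0.249, SDC2 at 0.792 ± 0.0920 and FMOD at 0.731 ± 0.0640 CPM per kb followed closely in SCC25, and on this scale these 3 did not differ beyond their spread. That order depends on the length used, 6850 bases for DCN against 3307 for SDC2 and 2943 for FMOD. In CPM, DCN stood above both, at 5.58 against 2.62 and 2.15. In SCC1 the next was VCAN, at 0.759 ± 0.200 CPM per kb. In SCC6 the next was PRELP, at 0.116 ± 0.0354 CPM per kb and the other 6 members were below 0.02 CPM per kb.

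**Figure D1:**
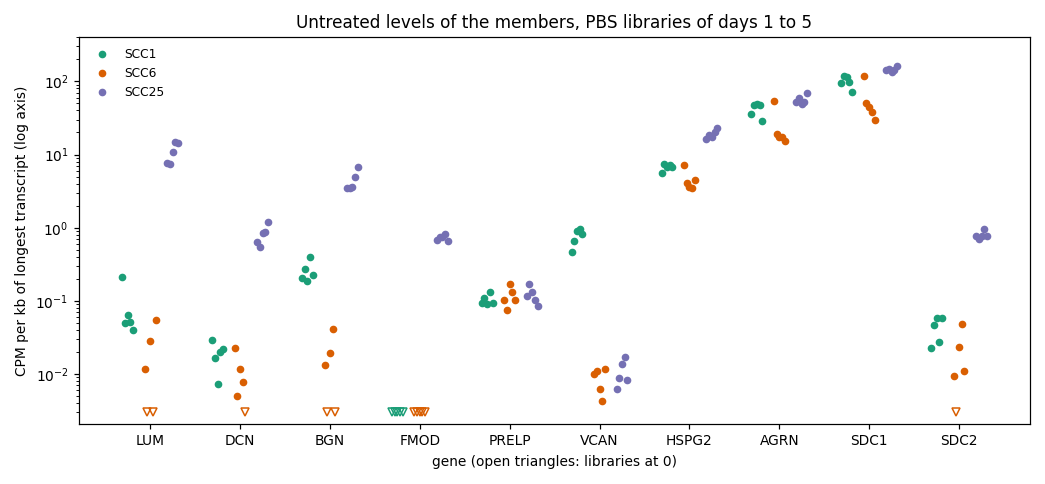
Untreated levels of the 10 members in CPM per kb of the longest transcript (log axis), 1 point per PBS library of days 1 to 5, coloured by cell line. SDC1, AGRN and HSPG2 are highest in each line, the small leucine-rich genes other than PRELP and the gene SDC2 are higher in SCC25 than in SCC1 and SCC6, and VCAN is highest in SCC1. Open triangles mark libraries at 0.

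Comparing the 15 PBS libraries of days 1 to 5, DCN averaged 5.58 ± 1.71 CPM in SCC25, 0.131 ± 0.0558 in SCC1 and 0.0651 ± 0.0592 in SCC6 (SD, n = 5 each). BGN averaged 10.5 ± 3.39 CPM in SCC25, 0.608 ± 0.194 in SCC1 and 0.0351 ± 0.0408 in SCC6. SDC2 averaged 2.62 ± 0.304, 0.142 ± 0.0551 and 0.0606 ± 0.0617 CPM in the same order. Both small leucine-rich genes and this syndecan were thus detected mainly in SCC25. The SCC25 libraries were 42.9-fold higher than SCC1 for DCN, 17.2-fold for BGN (edgeR quasi-likelihood test, adjusted p = 3.6e-10) and 17.8-fold for SDC2. DCN and SDC2 passed the filter on low counts through SCC25 alone, so their folds are given with no p-value.

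FMOD was at 0 in all 22 libraries of SCC1 and SCC6, days 0 and cetuximab included, and at 2.15 ± 0.188 CPM (SD, n = 5) in SCC25 with PBS. Taking 3 counts over the 5 PBS libraries as the most that a count of 0 allows, its level in SCC25 was at least 158-fold higher than in SCC1 and at least 109-fold higher than in SCC6. VCAN had the opposite order, at 9.37 ± 2.46 CPM in SCC1 against 0.133 ± 0.0539 in SCC25, which is 70.5-fold lower, and 0.107 ± 0.0400 in SCC6. It passed the filter through SCC1 alone, so no p-value is given. PRELP was the one member at nearly the same level in the 3 lines, at 0.600 ± 0.105 CPM in SCC1, 0.671 ± 0.204 in SCC6 and 0.702 ± 0.187 in SCC25. Its log2 difference between SCC25 and SCC1 was 0.22 with a 95% interval from -0.26 to 0.70.

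HSPG2 in SCC25, at 273 ± 40.2 CPM, was 2.83-fold higher than in SCC1 (96.7 ± 9.74, adjusted p = 6.0e-07) and 4.10-fold higher than in SCC6 (65.3 ± 21.1, adjusted p = 1.7e-08). AGRN and SDC1 were higher in SCC25 than in SCC6, by 2.25-fold (adjusted p = 0.0031) and 2.54-fold (adjusted p = 8.2e-04). The differences between SCC25 and SCC1 were not called for AGRN (log2 difference 0.43, adjusted p = 0.22) or SDC1 (0.56, adjusted p = 0.10, and 0.44, adjusted p = 0.048, with the GC trend removed), though both were called when SCC6 PBS day 1, which enters the shared spread, was left out (0.42, adjusted p = 0.015, and 0.55, adjusted p = 0.0031). Of the members with a test, 7 of 9 were called between SCC25 and SCC6, 6 of 9 between SCC25 and SCC1 and 6 of 10 between SCC6 and SCC1. Of all genes tested, 72% (37.2% higher, 34.8% lower), 68.3% (35% higher, 33.3% lower) and 68.9% (34.4% higher, 34.5% lower) were called, so the members' shares are near the background. LUM, DCN, SDC2 and FMOD had enough counts to enter through SCC25, and VCAN through SCC1, where they are high. They therefore had to differ between that line and the others, and nothing is read from these counts. The LUM call between SCC6 and SCC1 sets 0 to 4 counts per library against 5 to 22. HSPG2, AGRN and SDC1 were called lower in SCC6 than in SCC1, at log2 differences of -0.54, -0.74 and -0.78. With flow cell in the model these became 0.09, 0.93 and 0.74, but that fit sets 1 library against 1, SCC6 PBS day 1 against SCC1 PBS day 5, the only PBS libraries of days 1 to 5 in which both lines shared a flow cell. AGRN was at 399 and 212 CPM and SDC1 at 392 and 238 CPM in that pair, and SCC6 PBS day 1 stood apart from the other SCC6 PBS libraries for HSPG2, AGRN and SDC1. The difference between the lines and that of the flow cells cannot be told apart here beyond those 2 libraries. Without flow cell in the model, AGRN was not called without any one of SCC6 PBS days 2 to 5 or SCC1 PBS days 2 to 4 (adjusted p from 0.074 to 0.10), and SDC1 without any one of SCC6 PBS days 2 to 5 or SCC1 PBS days 2 and 3 (0.054 to 0.066). Neither was called with no filter on low counts (adjusted p = 0.10 and 0.072).

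LUM had far more RNA in SCC25 than in the other lines, and was higher with cetuximab there on every day. With PBS on days 0 to 5 its level in SCC25 was 20.9, 20.5, 20.1, 28.6, 39.6 and 38.2 CPM. With cetuximab on days 1 to 5 it was 51.8, 64.4, 91.7, 108 and 105 CPM. All 5 cetuximab libraries lay above all PBS libraries, and both courses ended higher than they began. The cetuximab to PBS ratio on days 1 to 5 was 2.52, 3.21, 3.20, 2.72 and 2.76, so it stayed in a narrow band while the level itself climbed. The fitted change was 2.88-fold (log2 1.52), between 1.41 and 1.67 without any one library. With flow cell in the model, where cetuximab days 1 and 2 alone are set against PBS days 1 to 5 of the same flow cell, the log2 change was 0.99. The PBS level climbed over those days. Against PBS of their own day, also on that flow cell, cetuximab days 1 and 2 stood at log2 ratios of 1.33 and 1.68. Since these are bulk samples, a change in the share of cells that express a gene and a change in RNA per cell cannot be told apart, here and below.

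In SCC1, LUM was close to the limit of detection, with 5 to 22 counts per PBS library and 9 to 39 per cetuximab library. Its level was 0.559, 0.135, 0.169, 0.136 and 0.107 CPM with PBS on days 1 to 5, and 0.884, 0.379, 0.678, 0.439 and 0.217 CPM with cetuximab. The cetuximab library was above the PBS library of its own day on each of the 5 days, although the groups overlapped through PBS day 1. LUM passed the filter on low counts through PBS day 1 and cetuximab days 1 to 4, and the change was 2.42-fold (log2 1.28, SE 0.48, edgeR adjusted p = 0.047). This call was lost in 8 of the 10 fits that left out a library, the exceptions being those without PBS day 1 (log2 1.92) and without cetuximab day 5. It was also lost with flow cell in the model (log2 2.26, adjusted p = 0.13), with day 0 added to PBS (0.99, adjusted p = 0.11) and with no filter on low counts (1.26, adjusted p = 0.070). In SCC6, LUM had at most 4 counts in a PBS library and between 2 and 15 in a cetuximab library, too few to be tested. KERA and EPYC, small leucine-rich genes beside LUM on chromosome 12, had at most 2 and 5 counts in any library.

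The LUM and DCN genes lie close together on the minus strand of chromosome 12, 28989 bases apart. In GENCODE on GRCh37, LUM spans chr12:91496406-91505271 and DCN chr12:91534261-91576994. The counts are per gene symbol.

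DCN was higher with cetuximab in both SCC1 and SCC25. In SCC25 its level was 4.37, 3.68, 5.72, 6.02 and 8.10 CPM with PBS on days 1 to 5, and 10.7, 10.7, 10.7, 11.5 and 11.04 CPM with cetuximab. The cetuximab level was thus flat from the first day, while the PBS level climbed towards it. The cetuximab to PBS ratio went from 2.46 and 2.90 on days 1 and 2 to 1.36 on day 5. No library overlapped between treatments, and the change was 1.97-fold (log2 0.98, SE 0.17, adjusted p = 0.0026). It was between 0.86 and 1.17 without any one library, and 0.95 with flow cell in the model (adjusted p = 0.025).

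In SCC1, DCN started from 2.38 to 7.97 counts per PBS library and reached 32.8 to 47.4 counts with cetuximab. Its level was 0.202, 0.112, 0.0503, 0.136 and 0.153 CPM with PBS on days 1 to 5, and 0.907, 0.733, 0.853, 1.15 and 1.09 CPM with cetuximab. The groups did not overlap, and the change was 7.39-fold (log2 2.88, SE 0.29, adjusted p = 7.0e-06), called in all 10 fits without a library and with flow cell in the model (2.64, adjusted p = 0.0057). DCN passed the filter on low counts in SCC1 through the cetuximab libraries alone, where it is high. The levels are therefore given as a description, and nothing is read from these p-values. The cetuximab level in SCC1 remained under that of untreated SCC25, the lowest of whose PBS libraries stood at 3.68 CPM. The change was smaller in SCC25 than in SCC1 by 1.89 on the log2 scale (line-by-treatment term, SE 0.39, adjusted p = 0.0016). With flow cell in the model that difference was -1.68 and was not called (adjusted p = 0.14). The term contains the same SCC1 change from few PBS counts, so nothing is read from its p-values either. In SCC6 no DCN library exceeded 14.1 counts and the gene was not tested.

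BGN, the closest relative of DCN, followed it in SCC1 only late in the course. Its SCC1 level with cetuximab was 0.544, 0.736, 1.15, 1.54 and 2.63 CPM on days 1 to 5, against 0.483, 0.647, 0.444, 0.928 and 0.537 CPM with PBS. The cetuximab to PBS ratio was 1.13 and 1.14 on days 1 and 2 and 4.90 on day 5. Over all days BGN was called 2.18-fold higher (log2 1.13, SE 0.39, adjusted p = 0.035), but the call was lost in 7 of 10 fits without a library, those without PBS day 4 or cetuximab days 1 or 2 being the exceptions. Without cetuximab day 5 the log2 change was 0.70, and neither 1.30 with flow cell in the model (adjusted p = 0.26) nor 1.12 with no filter on low counts (adjusted p = 0.11) was called. In SCC25 BGN was at 10.5 ± 3.39 CPM with PBS and 13.2 ± 3.06 with cetuximab (log2 0.34, adjusted p = 0.30), and was called only without PBS day 5 (0.56, adjusted p = 0.048) or with the GC trend removed and day as a block (0.48, adjusted p = 4.6e-04).

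FMOD (chr1:203309756-203320886) and PRELP (chr1:203444934-203460480) lie 124047 bases apart and showed no called change. FMOD in SCC25 was at 2.15 ± 0.188 CPM with PBS and 1.98 ± 0.499 with cetuximab, a log2 difference of -0.10 with a 95% interval from -0.47 to 0.26. PRELP differed between treatments by 0.00 (interval -0.39 to 0.39) in SCC1, -0.26 (-0.76 to 0.24) in SCC6 and -0.13 (-0.59 to 0.32) in SCC25 on the log2 scale. It had from 12.8 to 45.4 counts per library of days 1 to 5, so smaller changes were not detectable at this depth. OPTC, the small leucine-rich gene beside PRELP, had at most 3 counts.

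**Figure D2:**
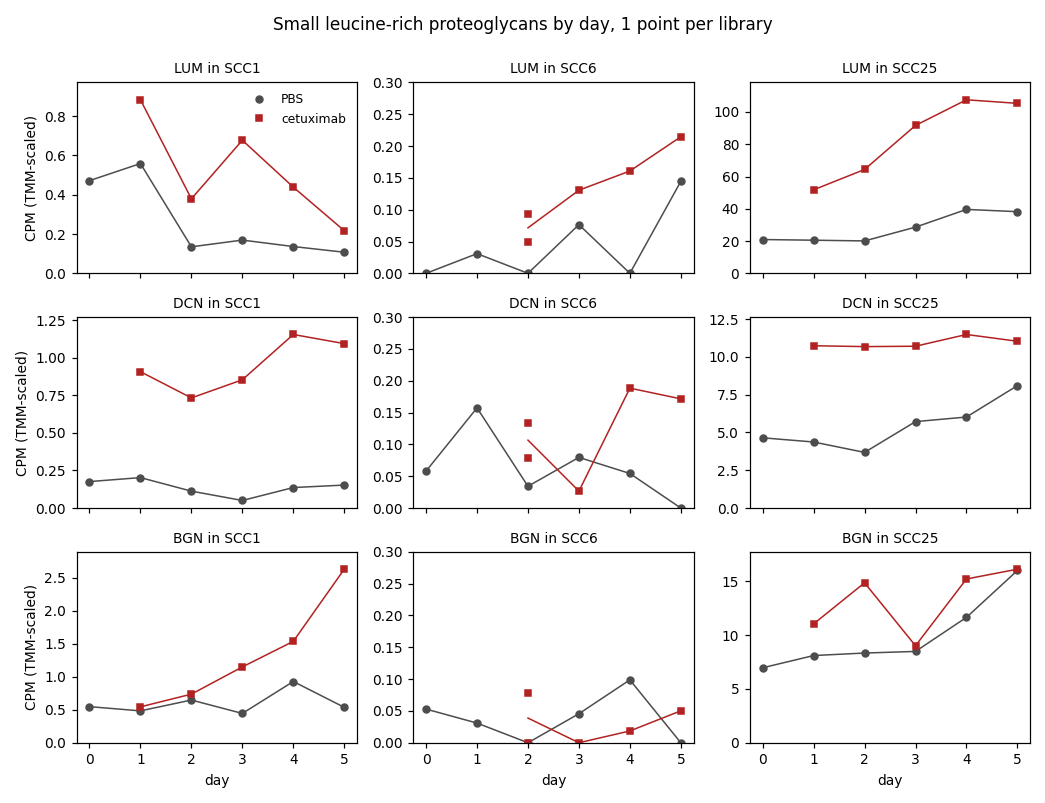
Levels of LUM, DCN and BGN (rows) in SCC1, SCC6 and SCC25 (columns) by day, in TMM-scaled CPM, 1 point per library for PBS (circles) and cetuximab (squares), each panel with its own axis from 0. LUM in SCC25 climbs under both treatments from 51.8 to 105 CPM with cetuximab, DCN is flat near 11 CPM with cetuximab in SCC25, and BGN parts from PBS in SCC1 from day 3. Both SCC6 cetuximab libraries labelled day 2 are drawn there, with the line through their mean.

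VCAN fell with cetuximab in SCC1. With PBS it was 3.45 CPM on day 0 and 5.82, 8.003, 11.3, 11.8 and 9.99 CPM on days 1 to 5, and with cetuximab 2.52, 1.82, 1.499, 1.46 and 2.10 CPM. Every cetuximab library was below every PBS library, day 0 included. The change was 4.90-fold lower (log2 -2.29, SE 0.20, adjusted p = 3.6e-06), with the fits without a library between -2.43 and -2.21 and the flow cell fit at -2.39 (adjusted p = 5.5e-04). In SCC6, VCAN had 2 to 4 counts per PBS library and 3 or 4 in cetuximab 2a, 2b and day 3, then 41 on day 4 and 81 on day 5, at 0.549 and 1.16 CPM. The 2 high libraries are the ones on their own flow cell. In SCC25, VCAN had 3 to 12.4 counts per library and was not tested. The change under cetuximab differed from that of SCC1 in SCC25 (difference of log2 changes 2.63, SE 0.71, adjusted p = 0.016, lost without SCC25 cetuximab day 4 at 0.058) and in SCC6 (adjusted p = 1.8e-05, no fold given because of the low counts). VCAN had enough counts for that fit through SCC1, so both values are set against few counts in the other line.

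HSPG2 rose with cetuximab in SCC1 and SCC6. In SCC1 its level was 81.0, 107, 97.0, 102 and 96.4 CPM with PBS on days 1 to 5, and 144, 224, 256, 302 and 414 CPM with cetuximab. The cetuximab course went up on each day and no library overlapped. The change was 2.81-fold (log2 1.49, SE 0.24, adjusted p = 8.8e-04), called without each library in turn, and of the same size but not called with flow cell in the model (1.49, adjusted p = 0.066), a fit that rests on PBS day 5.

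In SCC6, HSPG2 was at 102, 58.1, 52.1, 50.1 and 64.7 CPM with PBS on days 1 to 5, and at 130, 80.9, 154, 277 and 253 CPM with cetuximab 2a, 2b and days 3 to 5. PBS day 1 stood above cetuximab 2b, and the other libraries did not overlap. The change was 2.68-fold (log2 1.42, SE 0.31, adjusted p = 0.0056). On the flow cell that held both treatments, the 3 cetuximab libraries ranged from 80.9 to 154 CPM and the 4 PBS libraries from 50.1 to 64.7, and the fit with the flow cell gave 1.09 (adjusted p = 0.0016). The GC trend removed gave 1.11 (adjusted p = 2.8e-04).

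In SCC25, HSPG2 was at 231, 264, 250, 287 and 335 CPM with PBS and at 314, 369, 190.5, 347 and 349 CPM with cetuximab. The cetuximab libraries were above the PBS library of their day except on day 3. The change was not called (log2 0.21, adjusted p = 0.42). It was called without cetuximab day 3 (0.35, adjusted p = 0.028) and with the GC trend removed (0.37, adjusted p = 0.013). The change under cetuximab was smaller in SCC25 than in SCC1, by 1.27 on the log2 scale (SE 0.38, adjusted p = 0.034), and than in SCC6, by 1.23 (SE 0.38, adjusted p = 0.024). The first was not called without any one of SCC1 PBS days 1 and 3, SCC1 cetuximab days 4 and 5, SCC25 PBS days 4 and 5 and SCC25 cetuximab day 3 (adjusted p from 0.053 to 0.091). The second was not called without SCC6 PBS day 3, SCC6 cetuximab days 4 or 5, or SCC25 cetuximab day 3 (0.050 to 0.073). Both differences were lost with no filter on low counts (-1.27 and -1.28, adjusted p = 0.11 and 0.064) and with flow cell in the model (-1.14 and -0.77, adjusted p = 0.24 and 0.28) and kept with the GC trend removed (-1.16 and -0.78, adjusted p = 0.0011 and 0.018).

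The stretch of 250 bases before the HSPG2 start is shown because this gene was called in 2 lines and is among the most GC-rich tested. RefSeq (GRCh38.p14) gives it for 6 of the 10 members, HSPG2 included, and the letters match GRCh37 at one place, chr1:22263804-22264053, on the minus strand. It is written from 5′ to 3′ with the GC box GGGCGG, searched on both strands, in capitals.
HSPG2 upstream: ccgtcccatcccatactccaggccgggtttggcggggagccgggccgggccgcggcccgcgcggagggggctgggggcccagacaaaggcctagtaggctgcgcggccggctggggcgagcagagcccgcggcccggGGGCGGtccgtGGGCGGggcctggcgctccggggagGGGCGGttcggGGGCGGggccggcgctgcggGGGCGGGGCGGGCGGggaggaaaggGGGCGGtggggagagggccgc
The stretch is 82.8% G or C and holds 8 copies of the box, some of them sharing a base, where 42.6% of the 35116 stretches of the same length in the RefSeq table hold at least 1. TGANTCA, the letters of an AP-1 site, and TATAAA were not found in this window. They occur in 6.57% and 10.7% of all stretches.

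AGRN was not called in any line, and its SCC6 value turned on 1 library. In SCC6 it was at 399 CPM with PBS on day 1, then 144, 128, 129 and 116 CPM on days 2 to 5, against 237, 173, 236, 581 and 405 CPM with cetuximab. PBS day 1, on another flow cell than PBS days 2 to 5, was the only PBS library above any cetuximab library. The log2 change was 0.80 (SE 0.40, adjusted p = 0.15), and without PBS day 1 it was 1.31 (adjusted p = 0.0069). With flow cell in the model it was 0.71 (adjusted p = 0.0027) and with the GC trend removed 0.50 (adjusted p = 0.012). In SCC1, AGRN was at 313 ± 68.1 CPM with PBS and 425 ± 127 with cetuximab (log2 0.46, adjusted p = 0.12, and 0.58, adjusted p = 0.0014, with the GC trend removed). It was called there without cetuximab day 1 (0.59, adjusted p = 0.041) and by DESeq2 (adjusted p = 0.044). In SCC25 it was at 420 ± 62.2 and 436 ± 148 CPM (log2 0.06, adjusted p = 0.88, and 0.22, adjusted p = 0.016, with the GC trend removed). Cetuximab day 3 there was lowest, at 203 CPM, and the other cetuximab libraries lay between 415 and 599.7 CPM.

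SDC1, the most abundant member per kilobase, was not called between treatments in the main fit of any line. It was at 326 ± 59.4 CPM with PBS and 355 ± 43.2 with cetuximab in SCC1 (log2 0.14, 95% interval -0.14 to 0.42). In SCC25 it was at 481 ± 36.1 and 481 ± 70.8 CPM (log2 0.01, interval -0.20 to 0.22, and 0.12, adjusted p = 0.0497, with the GC trend removed). In SCC6 it was at 392, 166, 147, 125 and 96.3 CPM with PBS on days 1 to 5 and at 174, 149, 178, 269 and 250 CPM with cetuximab, so the untreated course fell while the treated one ended higher than it began. The log2 change there was 0.10 (interval -0.62 to 0.83), and 0.58 (adjusted p = 0.042) without PBS day 1. In SCC1 flow cell in the model gave 0.59 (adjusted p = 0.026).

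SDC2, like FMOD, had enough counts for a test in SCC25 only, at 2.62 ± 0.304 CPM with PBS and 2.99 ± 0.317 with cetuximab (log2 0.20, interval -0.05 to 0.45). In SCC6 all 5 cetuximab libraries, with 6 to 44 counts, lay above all 5 PBS libraries, with 0 to 6. In SCC1 the counts were 3 to 9 with PBS and 0 to 4 with cetuximab. SDC2 entered the fit over all 3 lines only through its counts in SCC25. Its change in SCC6 was called different there from SCC1 (adjusted p = 4.5e-04) and from SCC25 (adjusted p = 0.0087), which at these counts is given with no fold and nothing is read from it.

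**Figure D3:**
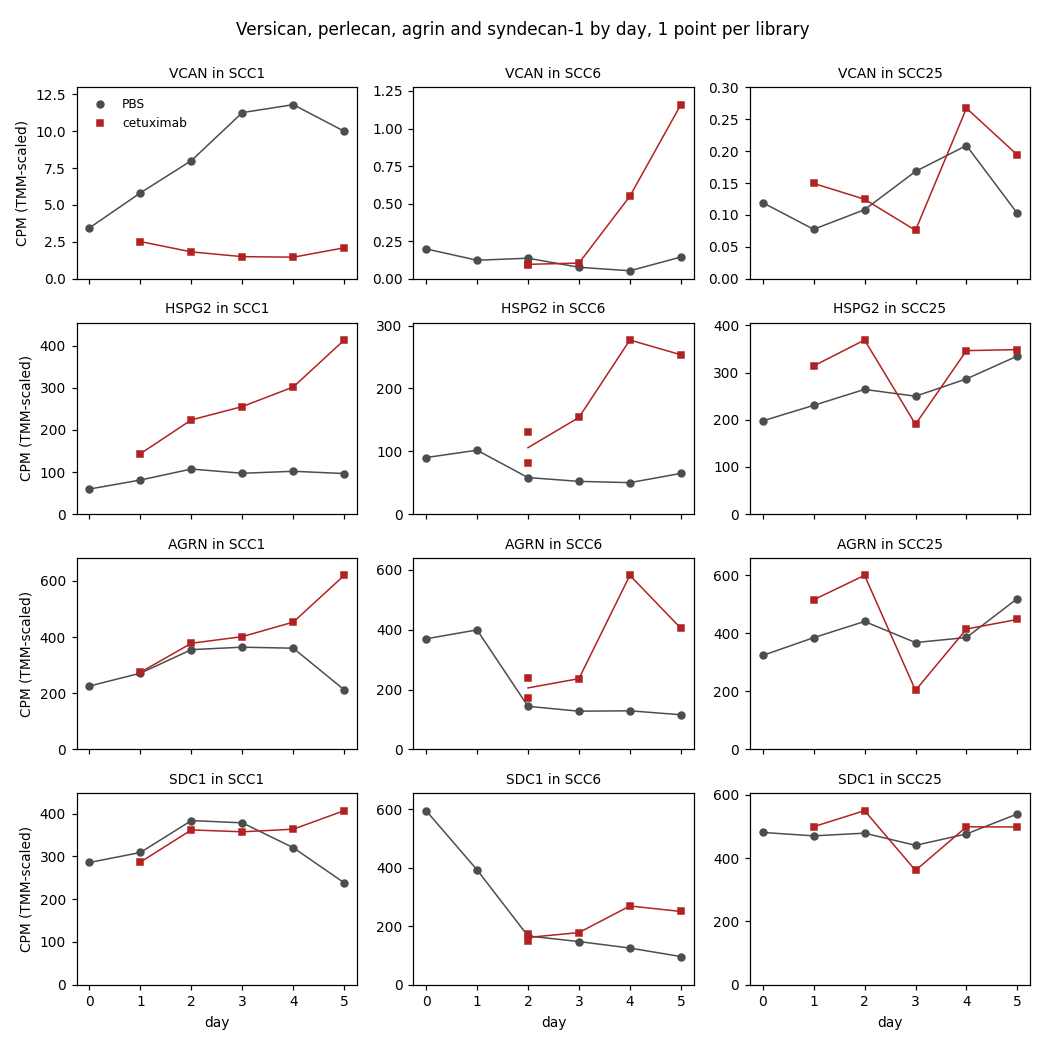
Levels of VCAN, HSPG2, AGRN and SDC1 (rows) in the 3 lines (columns) by day, in TMM-scaled CPM, 1 point per library for PBS (circles) and cetuximab (squares), each panel with its own axis from 0. VCAN in SCC1 stays at or under 2.52 CPM with cetuximab, HSPG2 parts from PBS in SCC1 and SCC6, and SCC25 cetuximab day 3 is low for HSPG2, AGRN and SDC1. The SCC6 line at day 2 runs through the mean of the 2 cetuximab libraries labelled so.

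Counted together, 5 of the 8 members that passed the filter on low counts in SCC1 were called with cetuximab, 4 higher and 1 lower, where 44.5% of all genes tested were called, 22.5% higher and 22% lower. In SCC6, 1 of 4 was called, higher, beside 30.1% of all genes, 15.5% higher and 14.5% lower. In SCC25, 1 of the 8 with a test was called, higher, beside 18.2% of all genes, 8.72% higher and 9.47% lower. FMOD and SDC2 in SCC1, VCAN in SCC25, and LUM, DCN, BGN, FMOD, VCAN and SDC2 in SCC6 did not pass the filter. In SCC1, DCN passed it through the cetuximab libraries alone and LUM mainly through them, so nothing is read from either call. LUM in SCC25 is left out of these counts. Cetuximab libraries all above PBS were found for DCN and HSPG2 in SCC1 (15% of genes tested), SDC2 in SCC6 (11.1%), which did not pass the filter, and DCN in SCC25 (6.2%), and all below for VCAN in SCC1 (16.3%). No member lay all below in SCC6 or SCC25, against 7.98% and 8.91% of all genes tested. The share of members called was thus near that of all genes in each line. Between lines, the change was called different for 2 of 10 members between SCC6 and SCC1, 3 of 9 between SCC25 and SCC1 and 2 of 9 between SCC25 and SCC6, beside 19.2% (11% higher, 8.19% lower), 8.5% (4.34% higher, 4.16% lower) and 17.5% (7.33% higher, 10.1% lower) of all genes. VCAN and SDC2, which had few counts in 1 or both of the lines compared, made up both of the first, 1 of the second and 1 of the third. DCN, with 2.38 to 7.97 counts per SCC1 PBS library, made up another of the second, and nothing is read from it. AGRN was not among the members called, and without SCC6 PBS day 1 its difference between SCC25 and SCC6 was -1.26 (adjusted p = 0.023).

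**Figure D4:**
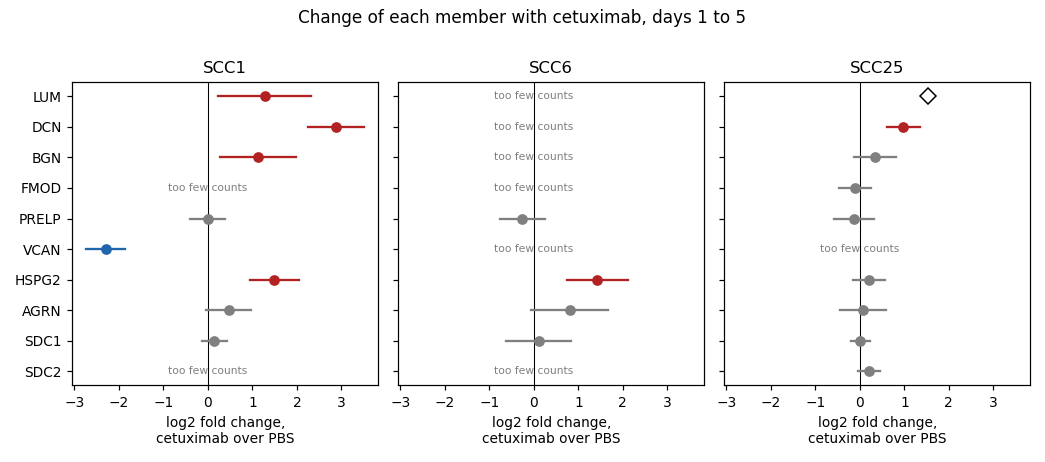
Log2 fold change of cetuximab over PBS, days 1 to 5, for each member in each line, with bars for the 95% interval, red for called higher, blue for called lower and grey for not called. DCN is called higher in SCC25 (0.98), HSPG2 in SCC1 (1.49) and SCC6 (1.42), and VCAN is called lower in SCC1 (-2.29). DCN in SCC1 (2.88) is also drawn as called, but it passed the filter through cetuximab alone and nothing is read from that call. The open diamond is LUM in SCC25, which has no test, and genes with too few counts carry no point.

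Without the drug, several members moved with time in culture. In SCC25, where all PBS libraries shared a flow cell, BGN (log2 slope 0.22 per day, SE 0.034, adjusted p = 6.5e-04), DCN (0.17, SE 0.044, adjusted p = 0.020) and HSPG2 (0.13, SE 0.020, adjusted p = 4.6e-04) were called higher with each day, 3 of the 8 members with a test, beside 11% of all genes, 7.22% higher and 3.82% lower. DCN was not called without day 5 (adjusted p = 0.28). The level of BGN on day 5 was 2.30 times that on day 0, and LUM, with no test, had a slope of 0.22 and a ratio of 1.83. In SCC6, SDC1 (-0.54 per day, adjusted p = 0.0015) and AGRN (-0.40, adjusted p = 0.014) were called lower, 2 of 4 members beside 32.5% of all genes, 13.8% higher and 18.6% lower. AGRN was not called without day 0 (-0.41, adjusted p = 0.062) or with no filter (-0.41, adjusted p = 0.082). HSPG2 was called there by DESeq2 (-0.17, adjusted p = 0.017) and without day 5 (-0.29, adjusted p = 0.025). Days 0 and 1 ran on another flow cell than days 2 to 5. With flow cell in the model SDC1 remained at -0.29 (adjusted p = 0.0031) and AGRN was at -0.07 (adjusted p = 0.34). In SCC1, edgeR called 0 of 7 members beside 2.68% of all genes (1.83% higher, 0.856% lower), with 3 at an unadjusted p under 0.05 and 1, VCAN, called by DESeq2. Without day 5, edgeR called VCAN (0.43 per day, adjusted p = 0.0050) and AGRN (0.17, adjusted p = 0.029) there. With flow cell in the model, where day 5 stands alone on its flow cell, the VCAN and AGRN slopes were 0.44 and 0.17. With the GC trend removed HSPG2 was called (0.11, adjusted p = 0.045), and with no filter VCAN (0.31, adjusted p = 0.036) and LUM (-0.51, adjusted p = 0.046). AGRN in SCC25 was called without day 2, 3 or 4, at a slope of 0.10 to 0.11 (adjusted p from 0.021 to 0.042), by DESeq2 (0.09, adjusted p = 0.013) and with no filter (0.09, adjusted p = 8.1e-05).

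The genes whose course in SCC25 was most like that of LUM were GBP2, EDIL3, MATN2, COL3A1 and SLC2A12. Likeness was the root mean square difference of log2(CPM + 0.1), each gene centred on its own mean, over the 11 SCC25 libraries and 14413 genes of at least 1 CPM. It was 0.15 for GBP2, EDIL3 and MATN2, 0.18 for COL3A1 and 0.20 for SLC2A12. COL3A1, a fibrillar collagen, went from 15.6 ± 3.39 CPM with PBS to 47.6 ± 16.3 with cetuximab (SD, n = 5). MATN2, a matrix adaptor protein, went from 27.9 ± 9.22 to 70.3 ± 15.2 CPM. Both rises follow from the choice, since LUM was picked for its rise in SCC25 and these genes for their likeness to LUM there. Among the members, DCN was nearest to LUM, at 0.40 and rank 71, then BGN at 0.66 and rank 667. HSPG2, at 0.80, ranked 2356.

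Most called collagens, the ligands of the small leucine-rich proteoglycans, were higher with cetuximab. Of 11 collagens, 6 of 9 tested were called higher and 3 lower with cetuximab in SCC1 (median log2 change 1.25 against 0.02 over all genes), 5 of 6 higher in SCC6 (1.59 against 0.00) and 5 of 10 higher in SCC25 (0.29 against 0.01), beside 22.5%, 15.5% and 8.72% of all genes called higher. COL5A1 rose by 2.23 in SCC1 (adjusted p = 6.7e-04) and by 4.11 in SCC6 (adjusted p = 3.9e-04). COL1A2 rose by 2.02 in SCC1 (adjusted p = 5.6e-04), COL1A1 by 3.72 in SCC6 (adjusted p = 0.0012), and COL3A1 by 1.62 (adjusted p = 0.0013) and COL5A2 by 0.93 (adjusted p = 1.1e-04) in SCC25. In SCC1, the 3 collagens called lower were the chains of collagen VI. COL6A1 fell by 1.48 (adjusted p = 4.8e-05), COL6A2 fell by 1.81 (adjusted p = 2.9e-04) and COL6A3 fell by 1.39 (adjusted p = 3.1e-04).

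Of the fibroblast markers, some were called higher with cetuximab and others were not. The summed level of the 12 markers ranged from 53.7 to 74.4 CPM with PBS and from 96.6 to 227 with cetuximab in SCC1, from 6.41 to 15.4 and 17.1 to 125 in SCC6, and from 177 to 202 and 244 to 365 in SCC25. Of those tested, 5 of 6 were called higher and 1 lower in SCC1, 2 of 5 higher in SCC6, and 3 of 11 higher and 1 lower in SCC25, beside 44.5%, 30.1% and 18.2% of all genes called in either direction. In SCC25 those higher were COL3A1, COL1A2 and FAP, a fibroblast surface protease, THY1 fell by 0.66 (adjusted p = 0.040), and the other 7 were not called. COL1A1, COL1A2, COL3A1 and COL6A3 are in both this list and the collagen list. Of the 12 markers, 2 averaged under 1 CPM in SCC25 with PBS and 3 with cetuximab, against 8 and 7 in SCC1 and 10 and 8 in SCC6. DPT, a dermal fibroblast marker, averaged 0.153 CPM in SCC25 with cetuximab and PDGFRB 0.637 CPM, while TWIST2 was at 9.52 CPM with PBS and 7.31 with cetuximab. PDGFRB in SCC6 was at 0.0754 CPM with PBS and 3.94 with cetuximab. It passed the filter on low counts through the cetuximab libraries alone, where it is high. No fold or p-value is therefore given, and nothing is read from its call, which is counted above. POSTN was called higher in SCC1 (log2 1.81, adjusted p = 0.0042). Of the 6 smooth muscle or pericyte markers, 1 of 4 tested was called higher and 1 lower in SCC1. In SCC6 3 of 5 were called higher and in SCC25 2 of 5, beside the same shares of all genes. TAGLN was called higher in all 3 lines. ACTA2 was called lower in SCC1 (log2 -1.18, adjusted p = 3.1e-05) and higher in SCC25 (1.19, adjusted p = 0.0083). The sum of the list, most of it TAGLN, ranged from 55.5 to 67.7 CPM with PBS and from 86.0 to 179 with cetuximab in SCC25. In SCC1 the sum of the smooth muscle list was 80.1 to 130 CPM with PBS and 123 to 175 with cetuximab, and in SCC6 17.7 to 20.8 and 96.6 to 447. The part of these markers in the changes of LUM and DCN was not tested.

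The other proteoglycan core proteins moved in both directions. Of 40 listed, 10 of 21 tested were called higher and 4 lower in SCC1 (median log2 change 0.28 against 0.02 over all genes), 10 of 23 higher and 6 lower in SCC6 (0.75 against 0.00), and 1 of 21 higher and 4 lower in SCC25 (0.13 against 0.01), beside 44.5%, 30.1% and 18.2% of all genes called in either direction. GPC1, a glypican, rose by 1.66 in SCC1 (adjusted p = 6.4e-04), and GPC4, another glypican, rose by 2.72 in SCC6 (adjusted p = 9.9e-05). COL18A1, a basement membrane collagen that carries heparan sulfate, rose by 1.31 in SCC1 (adjusted p = 0.030). PODNL1, a small leucine-rich relative of LUM, rose by 0.75 in SCC25 (adjusted p = 0.025), where TGFBR3 fell by 0.57 (adjusted p = 0.0019) and SPOCK1, a testican, fell by 0.59 (adjusted p = 0.0041). NRP1, a semaphorin and VEGF co-receptor, fell by 2.67 in SCC1 (adjusted p = 1.7e-06) and by 1.18 in SCC6 (adjusted p = 5.4e-04). ESM1, or endocan, went from 11.1 ± 5.72 CPM in SCC1 with PBS to 0 counts in all 5 cetuximab libraries, at least 782-fold lower when 3 counts over the group are taken as the limit. In SCC6 it went from 75.2 ± 34.5 to 0.368 ± 0.168 CPM (adjusted p = 3.0e-06).

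Among the enzymes that build the sugar chains, those of heparan sulfate held genes with the same direction in every line. Of 21 listed, 6 of 12 tested were called higher and 3 lower in SCC1, 4 of 12 higher and 3 lower in SCC6, and 3 of 14 higher and 3 lower in SCC25, with medians of 0.07, 0.05 and 0.09 against 0.02, 0.00 and 0.01 over all genes, of which 44.5%, 30.1% and 18.2% were called. HS6ST1, a 6-O-sulfotransferase, was called higher in SCC1 (0.60), SCC6 (1.30) and SCC25 (0.44), with adjusted p = 0.0018, 0.0065 and 0.040. HS3ST1, a 3-O-sulfotransferase, was called lower in SCC1 (-1.66), SCC6 (-1.47) and SCC25 (-1.29), with adjusted p = 4.3e-05, 3.3e-04 and 3.3e-04. HS6ST2, a relative of HS6ST1, was called lower in SCC1 (-0.32), SCC6 (-0.46) and SCC25 (-0.63), with adjusted p = 0.010, 0.043 and 0.0020. NDST1, which removes acetyl groups and adds sulfate to the chain, rose by 0.83 in SCC1 (adjusted p = 2.6e-06) and by 1.70 in SCC6 (adjusted p = 2.9e-04), and was called at 0.29 in SCC25 (adjusted p = 0.023).

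The enzymes of chondroitin, dermatan and keratan sulfate were called higher for 3 and lower for 7 of 20 tested in SCC1 (median -0.16), 4 and 1 of 17 in SCC6 (0.39) and 1 and 0 of 20 in SCC25 (0.03), beside 44.5%, 30.1% and 18.2% of all genes called. CHST11, a chondroitin 4-O-sulfotransferase, fell by 1.12 (adjusted p = 2.2e-05) and CHSY3, a chondroitin synthase, fell by 1.30 (adjusted p = 1.3e-04) in SCC1, the line in which VCAN fell. CHST14, a dermatan 4-O-sulfotransferase, rose by 1.09 in SCC6 (adjusted p = 0.0059), and UST, which sulfates uronic acids, rose by 0.61 in SCC25 (adjusted p = 4.9e-04). The linker and precursor enzymes, which start every chain, were called for 2 of 12 tested in SCC1, 4 of 13 in SCC6 and 1 of 13 in SCC25, against the same shares of all genes. XYLT1, a xylosyltransferase that begins the chain, rose by 1.26 in SCC6 (adjusted p = 0.0034) and fell by 0.46 in SCC25 (adjusted p = 0.0021).

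Of the genes for hyaluronan and its binders, the partners of versican, 4 of 9 tested were called in SCC1, 6 of 9 in SCC6 and 2 of 12 in SCC25, beside 44.5%, 30.1% and 18.2% of all genes, so the counts in SCC1 and SCC25 are near the background. HAS2 and HAS3, hyaluronan synthases, fell by 4.94 (adjusted p = 2.4e-05) and by 1.57 (adjusted p = 1.8e-04) respectively in SCC6, and HAS3 fell by 0.91 in SCC1 (adjusted p = 6.3e-04). HYAL1, a hyaluronidase, rose by 0.81 in SCC1 (adjusted p = 2.2e-04) and by 0.38 in SCC25 (adjusted p = 0.026). Of the genes for proteoglycan release and degradation, 9 of 19 were called higher and 2 lower in SCC1 (median 0.21), 7 of 21 higher and 2 lower in SCC6 (0.37) and 4 of 22 higher in SCC25 (0.15), where 22.5%, 15.5% and 8.72% of all genes were called higher. ADAMTS15, a versican- and aggrecan-cleaving protease, rose by 2.41 in SCC1 (adjusted p = 1.4e-04) and by 1.47 in SCC6 (adjusted p = 0.012). ADAMTS9, a protease of the same family, rose by 0.87 in SCC25 (adjusted p = 0.0024) and fell by 0.96 in SCC6 (adjusted p = 0.027). TLL1 and BMP1, tolloid proteases that process small leucine-rich proteoglycans, rose by 1.45 in SCC1 (adjusted p = 2.2e-05) and by 1.66 in SCC6 (adjusted p = 0.0011) respectively.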

How the data were processed

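RNA of SCC1, SCC6 and SCC25 was sequenced in bulk. The authors estimated transcript abundance with Salmon (0.8.2 in the submitters' processing notes) and summed it to gene symbols with tximport. The deposited table holds these estimated counts, not normalised between libraries. Their annotation is not given in the sources used here. Salmon shares reads between transcripts, so genes with similar copies can exchange counts. Of the symbols, 11814 of 56470 had no count.

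Counts were rounded and tested with R 4.3.3 and edgeR 4.0.16 (filterByExpr, TMM, quasi-likelihood F test, two-sided), with Benjamini-Hochberg adjustment over all genes tested and a call at adjusted p under 0.05. Groups came from the sample labels. A fold was given where each group averaged at least 5 counts per library. CPM used TMM factors over the 33 libraries. Lines were compared by line-by-treatment terms over 30 libraries. Lengths and GC content came from GENCODE v44lift37 (GRCh37), matched by symbol for 34694 genes and by an older symbol for 1359. The fits were tested on simulated data. DESeq2 1.42.0, its size factors, no filter, each library left out, day as a replicate block, flow cell in the model, and day 0 added to PBS were alternatives. Removing the GC trend (spline, 5 degrees of freedom) was added after the data were seen.

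The members and lists were chosen with earlier results of these data known. Named genes were the members, the 2 largest called changes per list, line and direction with a mean of at least 1 CPM, neighbouring genes, and the 5 genes most like LUM. Other list genes that met the rule are not detailed. One marker gene is not reported here. Nothing names separate cultures for the libraries. The deviations of the PBS and cetuximab libraries of a day had r from 0.12 to 0.25 in SCC25, where day 1 was nearer to another PBS day (0.29). In SCC1 r ranged from 0.06 to 0.21 and in SCC6, days 3 to 5, from -0.07 to 0.25. These r values are low and do not settle whether the libraries pair by day. The main fits leave day out. Counting error, beside the spread between days, limits the precision of genes with few counts.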

Additional observations from a re-analysis of the deposited data

Results flagged for a closer look

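In 42 groups of 5 libraries checked, 5 held a library apart from the rest by Dixon's test on the gap to the nearest library, where chance gives about 1 in 20. LUM in SCC1 with PBS was at 0.559 CPM on day 1, with 22 counts, against 0.169 for the nearest library. In SCC6 with PBS, day 1 was high for HSPG2 (102 CPM, nearest 64.7), AGRN (399 CPM, nearest 144) and SDC1 (392 CPM, nearest 166). That library ran on another flow cell than PBS days 2 to 5, and its GC slope was 0.26 (log2 per 10 percentage points) against -0.26 to -0.15. SDC1 in SCC25 with cetuximab was low on day 3, at 361 CPM against 498 for the nearest, and the GC slope of that library was -0.31. The part of flow cell and GC trend in these levels was not tested.

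The change with cetuximab was called different between lines by the line-by-treatment term of edgeR for 4 members. Of these, VCAN and SDC2 had few counts in the other lines, and DCN had few in SCC1 with PBS. The log2 change of DCN was lower in SCC25 than in SCC1 by a difference of -1.89 (adjusted p = 0.0016), with cetuximab above PBS on 5 of 5 days in both lines. In SCC1 DCN had 2.38 to 7.97 counts per PBS library and passed the filter through cetuximab alone, so nothing is read from that difference. HSPG2 differed by -1.27 between SCC25 and SCC1 (adjusted p = 0.034) and by -1.23 between SCC25 and SCC6 (adjusted p = 0.024). VCAN was called different at 2.63 between SCC25 and SCC1 (adjusted p = 0.016) and between SCC6 and SCC1 (adjusted p = 1.8e-05), and SDC2 between SCC6 and SCC1 (adjusted p = 4.5e-04) and between SCC25 and SCC6 (adjusted p = 0.0087). VCAN entered that fit through SCC1 and SDC2 through SCC25, and their counts in the other lines were too few for a test within them, so nothing is read from these 4 values.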

How the results depend on the processing

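With flow cell in the model, the genes called with cetuximab went from 8005 to 4171 in SCC1 and from 3474 to 1442 in SCC25, those with a different change from 4103 to 2326 (SCC6 against SCC1), 1820 to 918 (SCC25 against SCC1) and 3740 to 1708 (SCC25 against SCC6), and those with a day trend from 511 to 1713 in SCC1 and 5769 to 716 in SCC6. Members called went from 5 to 3 in SCC1, 1 to 2 in SCC6, 3 to 1 and 2 to 0 in the differences of SCC25 to SCC1 and to SCC6, and 0 to 2 and 2 to 1 for the trends of SCC1 and SCC6. The PBS difference of SCC6 to SCC1 reversed for HSPG2 (0.0915), AGRN (0.93) and SDC1 (0.74), in a fit that rests on SCC6 PBS day 1 against SCC1 PBS day 5 alone. The untested LUM difference of SCC25 to SCC1, 0.25, reversed to -1.26, and to -0.38 without SCC1 PBS day 1, its range without single libraries being -0.38 to 0.53. SCC25 PBS levels and day trends allowed no such model, because all those libraries shared a flow cell.

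With the GC trend removed, an alternative chosen after seeing the data, 5377 genes were called in SCC25, and 7024 with the replicate block. The same pair of settings gave 2817 and 3786 genes for SCC25 to SCC1, and GC removal gave 1073 for the SCC1 trend. Members called were 2 in SCC6 under both, 4 and 5 in SCC25, and 1 for the SCC1 trend. No filter on low counts gave 890 genes for the SCC1 trend, and 3 members in SCC1, 2 in SCC6, 1 for SCC25 to SCC6, 3 for PBS SCC6 to SCC1, 2 for the SCC1 trend and 1 for the SCC6 trend. DESeq2 gave 1468 genes and 1 member for the SCC1 trend, with no adjusted p for LUM and BGN.

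Without single libraries, genes called ranged from 2196 to 4002 in SCC25 (2219 and 2196 without cetuximab days 5 and 4, 2220 and 2272 without PBS days 2 and 3). For the SCC1 trend they were 83, 39, 221, 236, 70 and 1639 without days 0 to 5. For the other trends they ranged from 1827 to 7178 in SCC6 (1827, 3698 and 3085 without days 0, 1 and 5) and from 1168 to 2457 in SCC25 (1168 and 1294 without days 0 and 5). Members called ranged from 3 to 5 in SCC1, 1 to 3 in SCC6, 1 to 2 in SCC25, 1 to 3 for SCC25 to SCC6, 3 to 6 for PBS SCC6 to SCC1, and 0 to 2 and 1 to 3 for the trends of SCC1 and SCC6.

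With day as a replicate block, DCN in SCC25 was at 1.02 (adjusted p = 0.0023). There 5111 genes were called, against 3474 in the main fit, and no member's call with cetuximab changed. In SCC1 and SCC6, 8477 and 4922 genes were called, against 8005 and 5226. Not every cetuximab library there correlated best with the PBS library of its day (on SCC1 day 4, r was 0.063, and 0.14 with another day). The same held on SCC25 day 1 (0.12, and 0.29 with another day), though every r of SCC25 with its own day was above 0.1. For PBS levels the block added SDC1 between SCC25 and SCC1 (0.59, adjusted p = 0.031). The causes were not tested. Few counts limit LUM, DCN, BGN, FMOD, VCAN and SDC2 in the lines where they were not tested, and each group is 5 days of a single course.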
